A study of Mus musculus with 30 samples.

Results

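The anterior part of the mouse HoxD cluster, which carries Hoxd4, Hoxd3, Hoxd1 and the antisense long non-coding RNA gene Hoxd3os1, was described from the CTCF and RAD21 peak lists of 30 libraries. Its members were all listed peaks, called entries here, that overlap positions 74708001 to 74785142 of chromosome 2 in the mm10 build. There were 47 of them among 1352462 entries in all. CTCF contributed 31 of 826969 entries and RAD21 16 of 525493. CTCF and RAD21 had been mapped by ChIPmentation, a chromatin immunoprecipitation in which Tn5 transposase inserts the sequencing adapters while the chromatin is on the beads, in trunks of B6CBAF1 mouse embryos at stage E10.5. The embryos were wild type (WT) or homozygous for 1 of 6 alleles with CTCF binding sites (CBS) of the cluster mutated. In 2 of them a single site was mutated, Del(CBS1) or Del(CBS2). The other 4 were cumulative by their names: Del(CBS1-2) was read as sites 1 and 2, and Del(CBS1-3), Del(CBS1-4) and Del(CBS1-5) each added the next site. No other transgene or treatment is named in the labels. Control embryos were littermates, and each trunk was dissociated on its own, so libraries were counted as separate embryos; the labels do not say whether a CTCF and a RAD21 library came from the same embryo. For CTCF there were 3 WT libraries, 1 of Del(CBS2), 3 of Del(CBS1), 1 of Del(CBS1-2) and 2 of each of the other 3 alleles. For RAD21 there were 4 WT libraries, 3 of Del(CBS1), 1 of Del(CBS2) and 2 of each of the other 4 alleles. A whole trunk mixes many cell types, so fewer bound cells and less binding per cell cannot be told apart in any value below.

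Hox genes encode homeodomain transcription factors that give the body axis its regional identity. Within a cluster, the genes at the Hoxd1 side are switched on first and reach furthest towards the head, and those at the Hoxd13 side follow later and further back. CTCF is a zinc-finger protein that binds an asymmetric motif, and cohesin, the ring complex to which RAD21 belongs, is held at many CTCF-bound positions, where chromatin loops are anchored. Hoxd3 and Hoxd4 are paralogy group 3 and 4 members, Hoxd1 is the most anterior gene of the cluster, and Hoxd3os1 is transcribed from the strand opposite to Hoxd3.

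All WT lists had their highest entry of the window at 1 position, which was taken as CBS1 because the labels give no coordinates. For CTCF it was the median WT summit, 74715933, and for RAD21 74715962. Both lie inside the annotated spans of Hoxd3 (74711993 to 74748271) and Hoxd3os1 (74710044 to 74716130); the CTCF summit was 197 bp inside the Hoxd3os1 start. Libraries of WT and Del(CBS2) have CBS1 intact, and all other libraries have it mutated, as their allele names say. Exons and introns were not analysed here.

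The reference sequence around the Hoxd3os1 start is shown because the weaker CTCF summits that the mutated libraries had beside CBS1 fell in it. It is the RefSeq promoter window of GRCm38.p6, chr2:74716081-74716380 on the minus strand, from 250 bases before the start to 50 after it. Capitals mark the only match on either strand to a CTCF core motif, searched as CC, any 3 bases, AG, any 2 bases and GGC.
Hoxd3os1: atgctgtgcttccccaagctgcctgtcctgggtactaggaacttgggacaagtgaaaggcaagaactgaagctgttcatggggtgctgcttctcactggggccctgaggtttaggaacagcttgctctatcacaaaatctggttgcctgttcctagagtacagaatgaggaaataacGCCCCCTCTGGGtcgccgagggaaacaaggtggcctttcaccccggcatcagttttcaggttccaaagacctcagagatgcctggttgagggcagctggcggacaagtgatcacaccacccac
On the plus strand of the genome the match reads CCCAGAGGGGGC and covers positions 74716192 to 74716203, with its centre 265 bp from the CTCF summit at CBS1. The core occurred in 2824 of 32817 promoter windows of this length (8.61%). A CTCF summit was listed in all 3 WT libraries at 21.3% of the windows with the core and at 2.84% of those without. The Hoxd3 promoter also held 1 match, CCCGCAGCCGGC on the minus strand at positions 74711999 to 74712010, and no library of either antibody had a summit in that window. The windows of Hoxd4 and Hoxd1 held no match, which says only that these letters were not found there.

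The first comparison asked how CTCF at CBS1 differed between libraries with the site intact and with it mutated. CTCF was strong at CBS1 in every library that kept it and had no summit there in any library of the 5 alleles that mutate it. The signal value of an entry is the authors' fold enrichment of its summit over the local background. It was 18.4, 12.5 and 14.2 in WT replicates 1, 2 and 3, and 17.6 in Del(CBS2). By this fold the CBS1 entry ranked 1784 of 52925 entries in WT replicate 1, 5338 of 57271 in replicate 2, 6379 of 75027 in replicate 3 and 5224 of 88323 in Del(CBS2), that is within the top 3.37%, 9.32%, 8.50% and 5.91% of each list. The caller's -log10 q values were 151, 104, 193 and 379. The fold of Del(CBS2), in which only CBS2 is mutated, lay between the WT values, with 1 library and no test.

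Because the lists differ in length, each fold was also placed among the folds of the CTCF sites found in every library, as a percentile that is 0 where no summit was listed. CBS1 stood at percentile 94.2, 82.5 and 79.3 in WT and at 83.1 in Del(CBS2), and at 0 in all 10 libraries with CBS1 mutated. The groups did not overlap. In WT the mean was 85.3 ± 7.84 (SD, n = 3), a level reached by 4.60% of all 84385 CTCF sites. The difference over all libraries was -84.76 percentile points ± 3.52 (SE; limma, Benjamini-Hochberg adjusted p = 1.25e-08 over 84385 sites). CBS1 had been picked as the highest WT position of the window, and it entered the table of sites only through intact libraries, so the p-values at CBS1, for RAD21 as well, are not independent of that choice. The Del(CBS2) library and the 10 mutated libraries had no part in picking it. The exact permutation test over the 14 libraries gave p = 0.000999, the smallest that 1001 permutations can give. Del(CBS1) against WT, the contrast of the allele that mutates CBS1 alone, gave -85.32 ± 4.88 (limma, adjusted p = 0.00253), and 3 of 3 mutant libraries were at 0. This call was lost when summits were linked within 200 bp, which joined CBS1 with the weaker summits beside it (-67.97 points, adjusted p = 0.215). It was also lost with replicate number added to the fit (-85.32 points, limma adjusted p = 0.0537), although these numbers were not taken as pairs.

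CBS1 was the 1 CTCF site called in each of these contrasts, where 0.00119% of the 84385 sites were called lower and 0 higher. The next most negative differences were -48.21 and -72.72 points, and no other site had a limma adjusted p below 0.131 and 0.931. At an unadjusted p under 0.05 there were 6628 sites (7.85%) with CBS1 mutated against intact and 2990 (3.54%) for Del(CBS1) against WT. The count of 1 depended on the libraries entered. It became 46, 31 and 5 without WT replicates 1, 2 and 3 for the first contrast. For Del(CBS1) against WT it became 31, 7 and 12 without these WT replicates and 44, 2 and 2 without Del(CBS1) replicates 1, 2 and 3. Not all of these were losses: of the 44, 40 were higher and 4 lower in Del(CBS1). Of the 31, 1 was higher and 30 were lower. CBS1 itself stayed called in each of these fits, with an adjusted p of at most 0.0364.

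By detection, a CTCF summit was listed at CBS1 in 4 of 4 intact and 0 of 10 mutated libraries (Fisher's exact test, 2-sided, p = 0.000999). This p-value too is not independent of how CBS1 was picked. The detection pattern was met by 0.0107% of all CTCF sites, 9 in number, and the other 8 had mean WT percentiles of at most 1.41. The plot of percentile differences over all sites shows CBS1 apart from the rest.

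**Figure D1:**
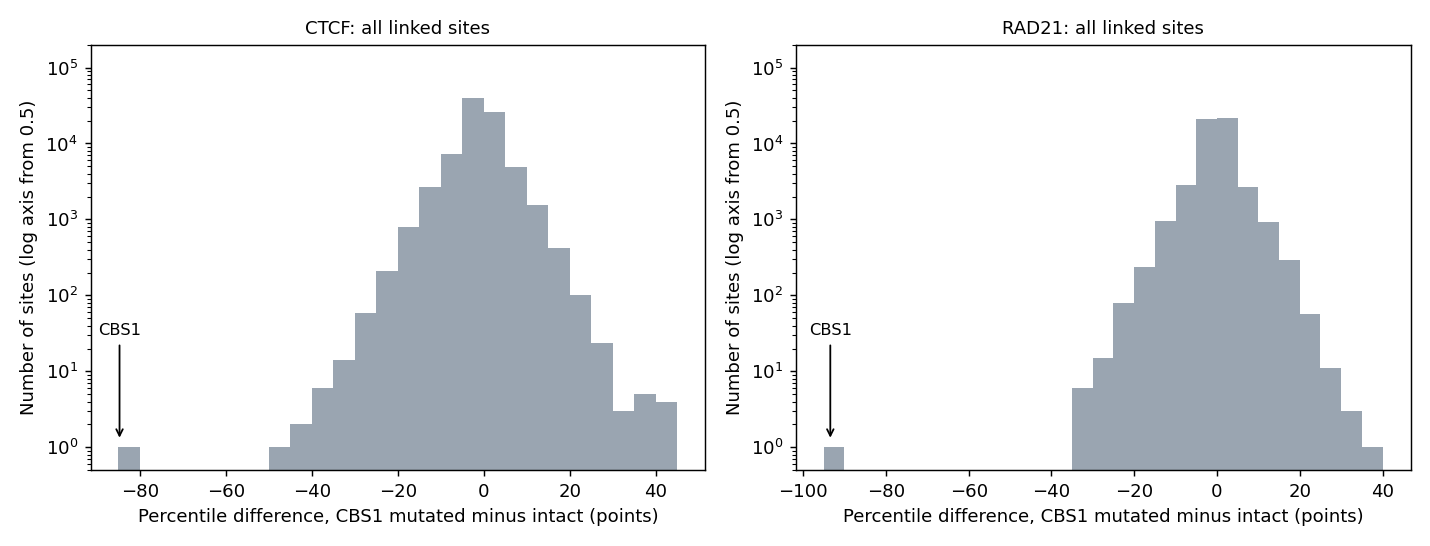
Number of linked sites (log axis) by the percentile difference between libraries with CBS1 mutated and intact, in bins of 5 points, for 84385 CTCF and 50473 RAD21 sites. The arrow marks CBS1, at -84.76 points for CTCF and -93.41 for RAD21; the next most negative sites are at -48.21 and -34.78.

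RAD21 at CBS1 was compared in the same way. It was among the highest-ranked entries of each list that kept CBS1 and was not listed there in any of the 11 libraries with CBS1 mutated. Its fold was 15.2, 13.7, 11.8 and 17.8 in WT replicates 1 to 4 and 19.6 in Del(CBS2). These folds lay in the top 2.00%, 2.101%, 6.96%, 1.502% and 0.632% of their lists, with -log10 q values of 80.0, 188, 128, 183 and 304. WT replicate 3 was the lowest by rank and Del(CBS2) the highest. On the percentile scale, taken among the RAD21 sites found in every library, the 4 WT libraries stood at 96.6, 93.7, 83.1 and 96.1 and Del(CBS2) at 97.7, against 0 in the 11 mutated libraries.

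The RAD21 difference was -93.41 points ± 2.59 (SE; limma, adjusted p = 4.25e-12 over 50473 sites), and the exact permutation p was 0.000229, the smallest of 4368 permutations. Del(CBS1) against WT gave -92.35 ± 3.97 (limma, adjusted p = 7.09e-06), with 3 of 3 Del(CBS1) libraries at 0. Here too CBS1 was the 1 site called, 0.00198% of the RAD21 sites in each contrast. The next most negative sites had -34.78 and -53.20 points, and 1907 (3.78%) and 1787 (3.54%) sites had an unadjusted limma p under 0.05. For Del(CBS1) against WT the count became 201 and 7 without Del(CBS1) replicates 1 and 2. It became 2 without Del(CBS1-3) replicate 2, and CBS1 was called in each. Most of these calls were higher in Del(CBS1): 196 higher and 5 lower of the 201, and 6 higher and 1 lower of the 7. The 2 were 1 higher and 1 lower. Detection was 5 of 5 against 0 of 11 libraries (Fisher's exact p = 0.000229), a pattern that only CBS1 showed among the 50473 RAD21 sites (0.00198%). This p-value is likewise not independent of how CBS1 was picked.

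The summits of both proteins lay close together. With CBS1 intact the CTCF summits were at 74715925, 74715972 and 74715933 in WT and 74715965 in Del(CBS2), with an SD of 23.2 bp over the 4 libraries. The RAD21 summits were at 74715977, 74715975, 74715949 and 74715936 in WT and 74715963 in Del(CBS2), with an SD of 17.5 bp over 5 libraries. RAD21 was on average 11.2 bp further towards Hoxd1, which was within the spread (exact permutation p = 0.429).

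The weaker entries beside CBS1 were examined next. All 10 CTCF libraries with CBS1 mutated listed 1 entry with its summit 213 to 424 bp from the CBS1 position, always on the Hoxd1 side, and none of the 4 intact libraries listed a summit more than 100 and up to 1000 bp away, a stretch called the flank here. In Del(CBS1) replicates 1, 2 and 3 the summits were 424, 213 and 268 bp away with folds of 7.37, 4.47 and 5.24. Del(CBS1-2) had 240 bp and fold 7.58. Del(CBS1-3) had 280 and 318 bp with folds of 6.92 and 2.84, Del(CBS1-4) had 340 and 282 bp with folds of 4.27 and 3.67, and Del(CBS1-5) had 240 and 251 bp with folds of 6.05 and 6.85. Every one of these folds was below the lowest fold at intact CBS1, 12.5.

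In rank these entries were low to middling. They lay within the top 37.1% of the list in Del(CBS1-2) but only within the top 96.0% in Del(CBS1-3) replicate 2, and their percentiles ran from 1.06 to 27.9 with a median of 12.8. By allele the mean percentile was 17.0 ± 5.19 (SD, n = 3) in Del(CBS1), 9.30 ± 11.7 (n = 2) in Del(CBS1-3), 6.96 ± 3.57 (n = 2) in Del(CBS1-4) and 10.9 ± 2.84 (n = 2) in Del(CBS1-5), and Del(CBS1-2) had the 1 value of 27.9. The 2 libraries of Del(CBS1-3) alone spanned 1.06 to 17.5, so no order of the alleles can be read from these values. The -log10 q was at least 10 in 6 of the 10 libraries, and the highest was 27.0.

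The linked flank site, with summits from 74716146 to 74716357, was the 1 CTCF site of 84385 (0.00119%) found in every library with CBS1 mutated and in no library with it intact, 10 of 10 against 0 of 4. No test of this count is given, because the site entered the table only through mutated libraries and the intact CBS1 entry covered its position. As a percentile it did not pass over all sites: the difference was 13.32 points ± 4.202 (SE; limma, adjusted p = 0.627), and 17.03 ± 4.65 for Del(CBS1) against WT (adjusted p = 0.931). Counting only entries with a -log10 q of at least 10, the count was 6 of 10 against 0 of 4.

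A summit list may miss a weaker summit under a wide peak, although some intervals of these lists held 2 summits. The CBS1 entry of each intact library had a single summit. In the intact libraries the CBS1 entry was 811 to 953 bp wide and its interval also covered the flank, so when any overlapping entry counted, all 14 libraries had one and the detection difference was 0. The CBS1 entry of intact libraries was set against the flank entry of mutated ones. No test is given, since the latter was picked by a summit away from CBS1. In mutated libraries the left edge lay 406 bp further to the right than in intact ones, whereas the right edge differed by 51.8 bp. The width was 864 ± 62.8 bp (SD, n = 4) for the intact CBS1 entries and 509 ± 124 bp (n = 10) for the flank entries. In 2 of the 10 mutated libraries, Del(CBS1-3) replicate 1 and Del(CBS1-4) replicate 2, the entry still reached over the CBS1 position, with its summit 280 and 282 bp away. These edge and width measures were chosen after the entries had been seen. The labels do not give the size of each mutation, and its part in the position of the edges and summits was not tested.

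**Figure D2:**
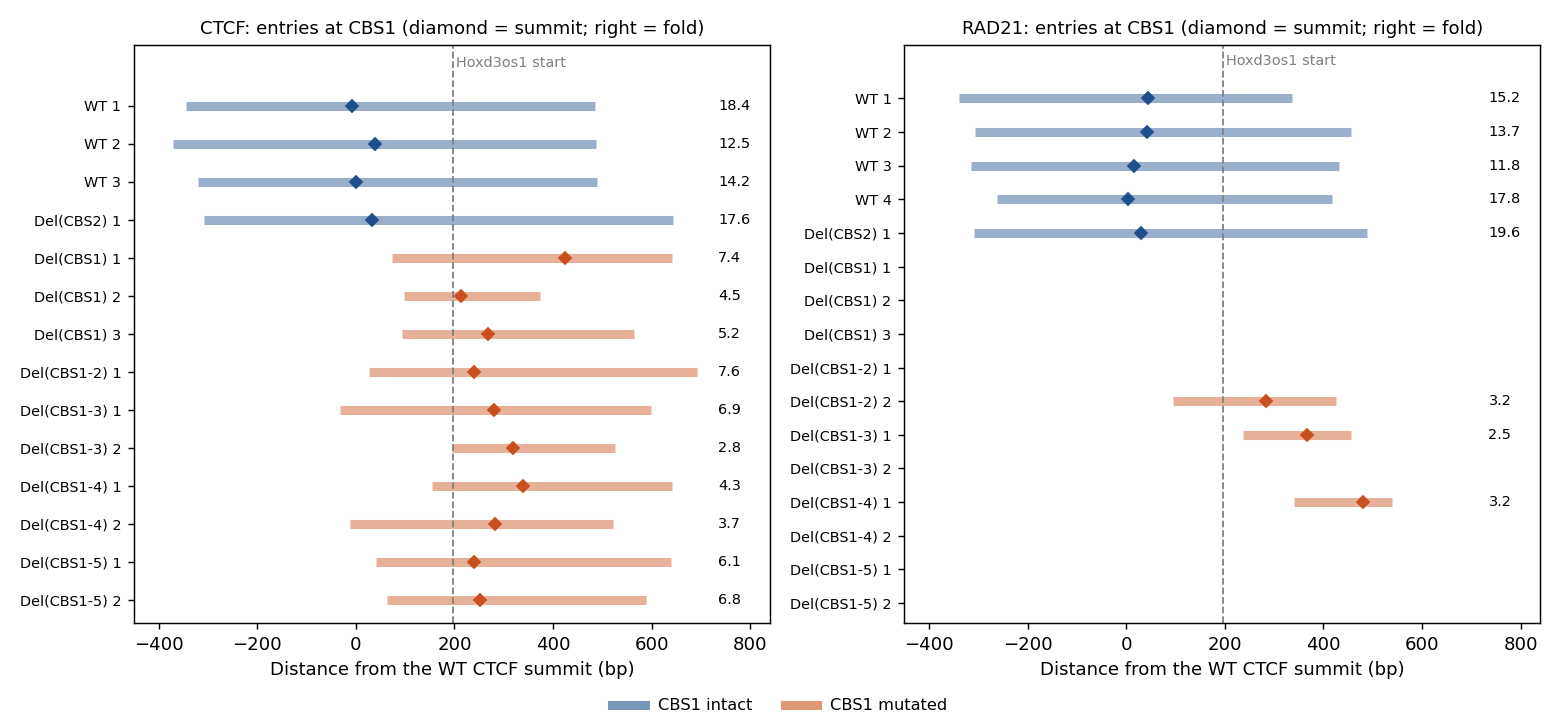
Extent (bar) and summit (diamond) of every entry within 1 kb of CBS1 by library, in bp from the median WT CTCF summit, with the fold at the right; blue is CBS1 intact and orange CBS1 mutated. The CTCF entries of mutated libraries have summits at 213 to 424 bp, beyond the Hoxd3os1 start (dashed, at 197 bp), and 8 RAD21 libraries have no entry.

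The core match in the Hoxd3os1 promoter shown above lay at these flank summits. All 10 CTCF flank summits and 0 of the 4 CBS1 summits fell in that promoter window. Over all promoter windows, 2.84% had a CTCF summit in all 10 mutated libraries. The signed offset of the flank summits from the centre of the core, positive towards Hoxd1, had a median of 9 bp. Negative and positive offsets cancel in this median, so it is not a typical distance. The offsets ran from -52 to 159 bp, and 6 of 10 summits were within 50 bp on either side. The intact CBS1 summits had a median signed offset of -249 bp from that centre. A match of letters is a description and does not show which bases were bound.

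RAD21 was listed at this flank in fewer libraries than CTCF. With CBS1 mutated it had a flank summit in 3 of 11 libraries: Del(CBS1-2) replicate 2, 255 bp from its CBS1 position with fold 3.18, Del(CBS1-3) replicate 1, 338 bp away with fold 2.49, and Del(CBS1-4) replicate 1, 451 bp away with fold 3.21. None was found in the 3 Del(CBS1) or the 2 Del(CBS1-5) libraries, nor in the 5 intact ones. No test of mutated against intact is given, because the intact CBS1 entries, each with a single summit, reached into the flank. The 3 flank entries had percentiles of at most 0.285 and ranks between the top 82.6% and the top 99.0% of the list. Among mutated libraries, 10 of 10 CTCF and 3 of 11 RAD21 lists had a flank summit. No test is given, since the flank was described from the CTCF entries and the lists of the antibodies differ in length.

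Of the 30577 CTCF sites found in all 10 mutated libraries, the median had a RAD21 summit within 100 bp in 10 of the 11 mutated RAD21 libraries, and 19.4% had one in 3 or fewer. These sites were of any CTCF strength and were not matched to the flank, whose median CTCF percentile was 12.8. The lists with a RAD21 flank entry held 34406 to 38727 entries and those without held 16676 to 41178. When every RAD21 list was shortened to the same number of top entries, 16676, no RAD21 flank entry was left in any library. CTCF lists shortened to 40011 entries kept the flank summit in 10 of 10 mutated and 0 of 4 intact libraries. Each cut was the shortest list of that antibody, so these results do not compare the antibodies at the same list length. By fold, the CTCF flank entries ranked 23090 to 40861 in their lists, all beyond 16676. A cut of the CTCF lists to 16676 was not made. When any entry that covered CBS1 or overlapped the flank counted, RAD21 was found in 5 of 5 intact and 3 of 11 mutated libraries (-72.73 percentage points). The 5 intact entries were those of CBS1 itself, whose intervals reached into the flank. This count therefore does not measure the flank, and no test of it is given. The left edge of the 3 RAD21 flank entries lay 531 bp to the right of that of the intact CBS1 entries and the right edge 47.9 bp, with no test, since only mutated libraries with such an entry could be compared.

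**Figure D3:**
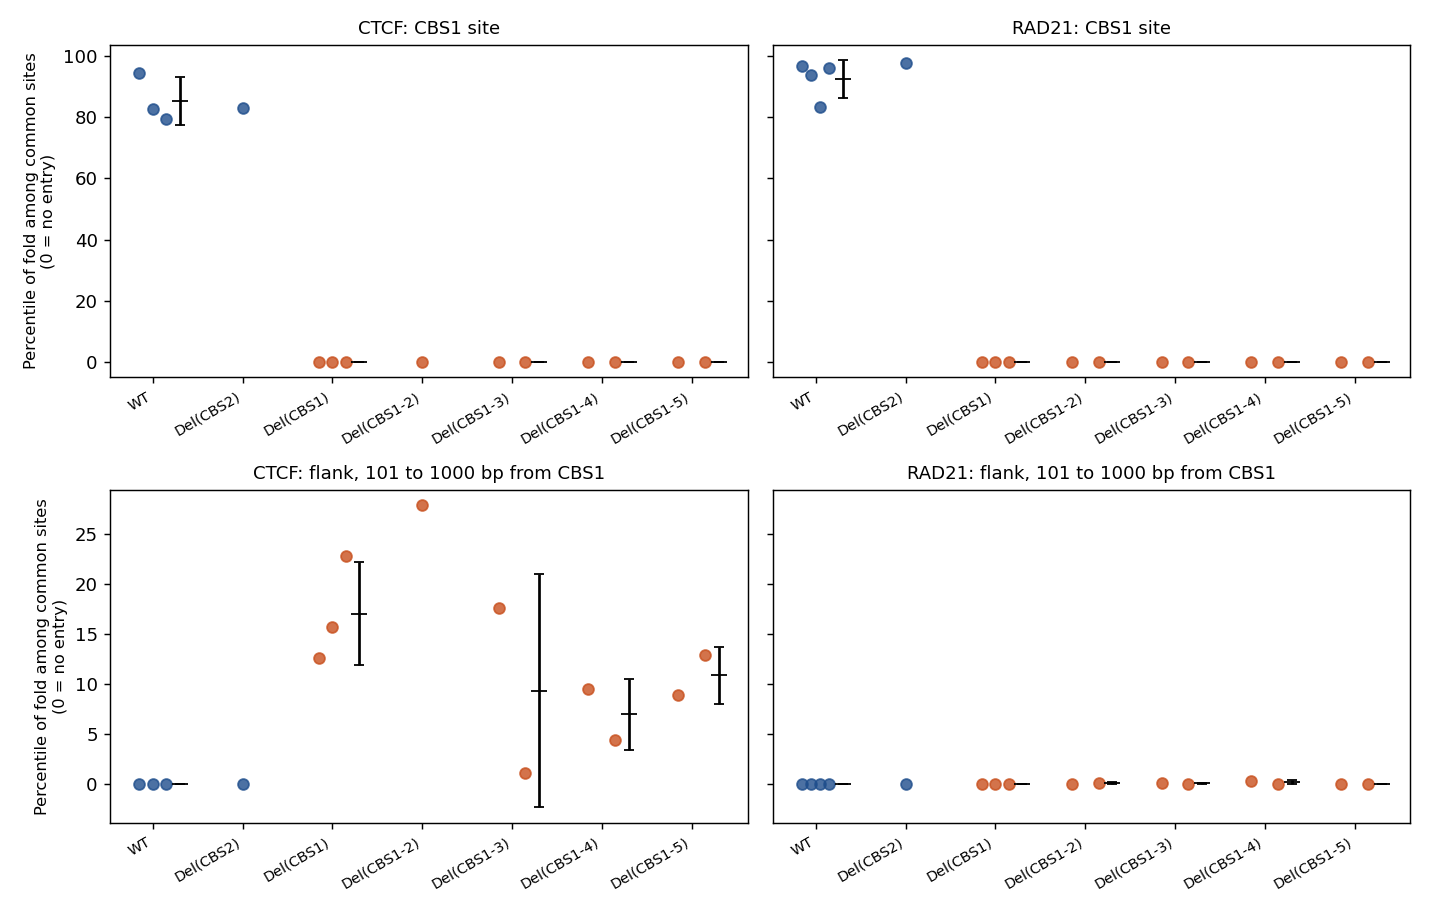
Percentile of the fold among sites common to all libraries of an antibody, at CBS1 (top) and at the flank (bottom), by genotype; points are libraries, bars are mean and SD where there are 2 or more, and 0 means no summit. CTCF at CBS1 is at 79.3 to 94.2 with the site intact and 0 with it mutated, and the flank is at 1.06 to 27.9 in CTCF libraries with CBS1 mutated.

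Beyond 1 kb from CBS1 the entries were weak wherever they were listed. CTCF had 17 further entries in 8 of 14 libraries, with folds of 2.25 to 3.90 and percentiles of at most 4.69. RAD21 had 8 in 5 of 16 libraries, with folds of 2.39 to 3.32 and percentiles of at most 0.5002. Linked within 100 bp, the whole window held 13 CTCF sites, 6 of them in at least 2 libraries, and 8 RAD21 sites, 4 of them in at least 2. No summit lay to the left of CBS1 and none beyond the end of Hoxd1. Of the linked sites that limma tested here, only CBS1 was called.

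Within Hoxd4 (74721978 to 74729160) CTCF had 2 entries, both at the linked site 74728216: fold 3.90 in Del(CBS2) and 2.91 in Del(CBS1-3) replicate 1. The site thus occurred once with CBS1 intact and once with it mutated, and its difference did not pass (limma, -0.20 points ± 0.13, adjusted p = 0.662). RAD21 had no entry in Hoxd4, and neither protein had one in Mir10b, the microRNA gene inside the Hoxd4 span.

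The last 2500 bp of Hoxd3 held most of the other CTCF entries. They numbered 13, of which 1 was in WT replicate 3 and 12 were spread over 5 of the 10 mutated libraries. Del(CBS1-5) replicate 1 had 4 of these entries, Del(CBS1-3) replicate 2 had 3, both Del(CBS1-4) libraries had 2 each and Del(CBS1) replicate 3 had 1. In 4 cases 2 of these summits belonged to the same interval, so they are not separate peaks. The linked sites found more than once were 74746621 and 74747605, each in 3 mutated libraries, and 74747786 in 2, with limma adjusted p of 0.827, 0.861 and 0.863. Counted by library, 1 of 4 intact and 5 of 10 mutated libraries had an entry there (Fisher's exact p = 0.580, on a region chosen after seeing the entries). With 4 intact libraries this count cannot decide whether the groups differ. RAD21 had 1 entry in this region, in Del(CBS1-4) replicate 2. A single CTCF entry at 74735361, in Del(CBS1-5) replicate 1, was a further one inside Hoxd3, whose span also holds the 2 entries of Hoxd4.

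Haglr, a long non-coding RNA gene between Hoxd3 and Hoxd1, held 1 CTCF and 4 RAD21 entries. The linked RAD21 site 74749902 in it was found in Del(CBS2) (fold 3.03) and Del(CBS1-2) replicate 2 (fold 2.39; limma adjusted p = 0.935). The Del(CBS2) library alone had both proteins at the non-coding gene Gm14424, inside Haglr, with a CTCF summit at 74753243 (fold 3.57) and a RAD21 summit at 74753240 (fold 3.32). The Del(CBS2) lists were the longest of each antibody, at 88323 and 48102 entries.

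Hoxd1 (74762980 to 74765142) had no CTCF entry in any library. RAD21 was listed at its start, at the linked site 74762919, in WT replicate 2 (fold 3.16), Del(CBS1-2) replicate 2 (2.96) and Del(CBS1-3) replicate 1 (2.78). That is 1 of 5 intact and 2 of 11 mutated libraries (limma difference -0.0090 points, adjusted p = 0.971), and 10.98% of all promoter windows had a RAD21 summit in at least 3 of the 16 RAD21 libraries. WT replicate 2 had a further RAD21 entry inside the gene, at 74764088, with fold 2.53.

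Per 10000 listed entries, the CTCF libraries had 0.0899 entries beside CBS1 when it was intact and 0.443 when it was mutated (exact permutation p = 0.0370). The count leaves out the CBS1 entry of intact libraries but takes in the flank entry that every mutated library had. Its p-value is therefore no independent support for a difference. The difference rested on the flank: without the entries within 1 kb of CBS1 the means were 0.0899 and 0.254 (exact permutation p = 0.296), an alternative chosen after seeing the data. Leaving out any 1 of the 3 WT libraries, or replicate 1 of Del(CBS1-4), also ended the call (exact p = 0.0517 to 0.0804). RAD21 had 0.184 and 0.170 (exact permutation p = 0.945).

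**Figure D4:**
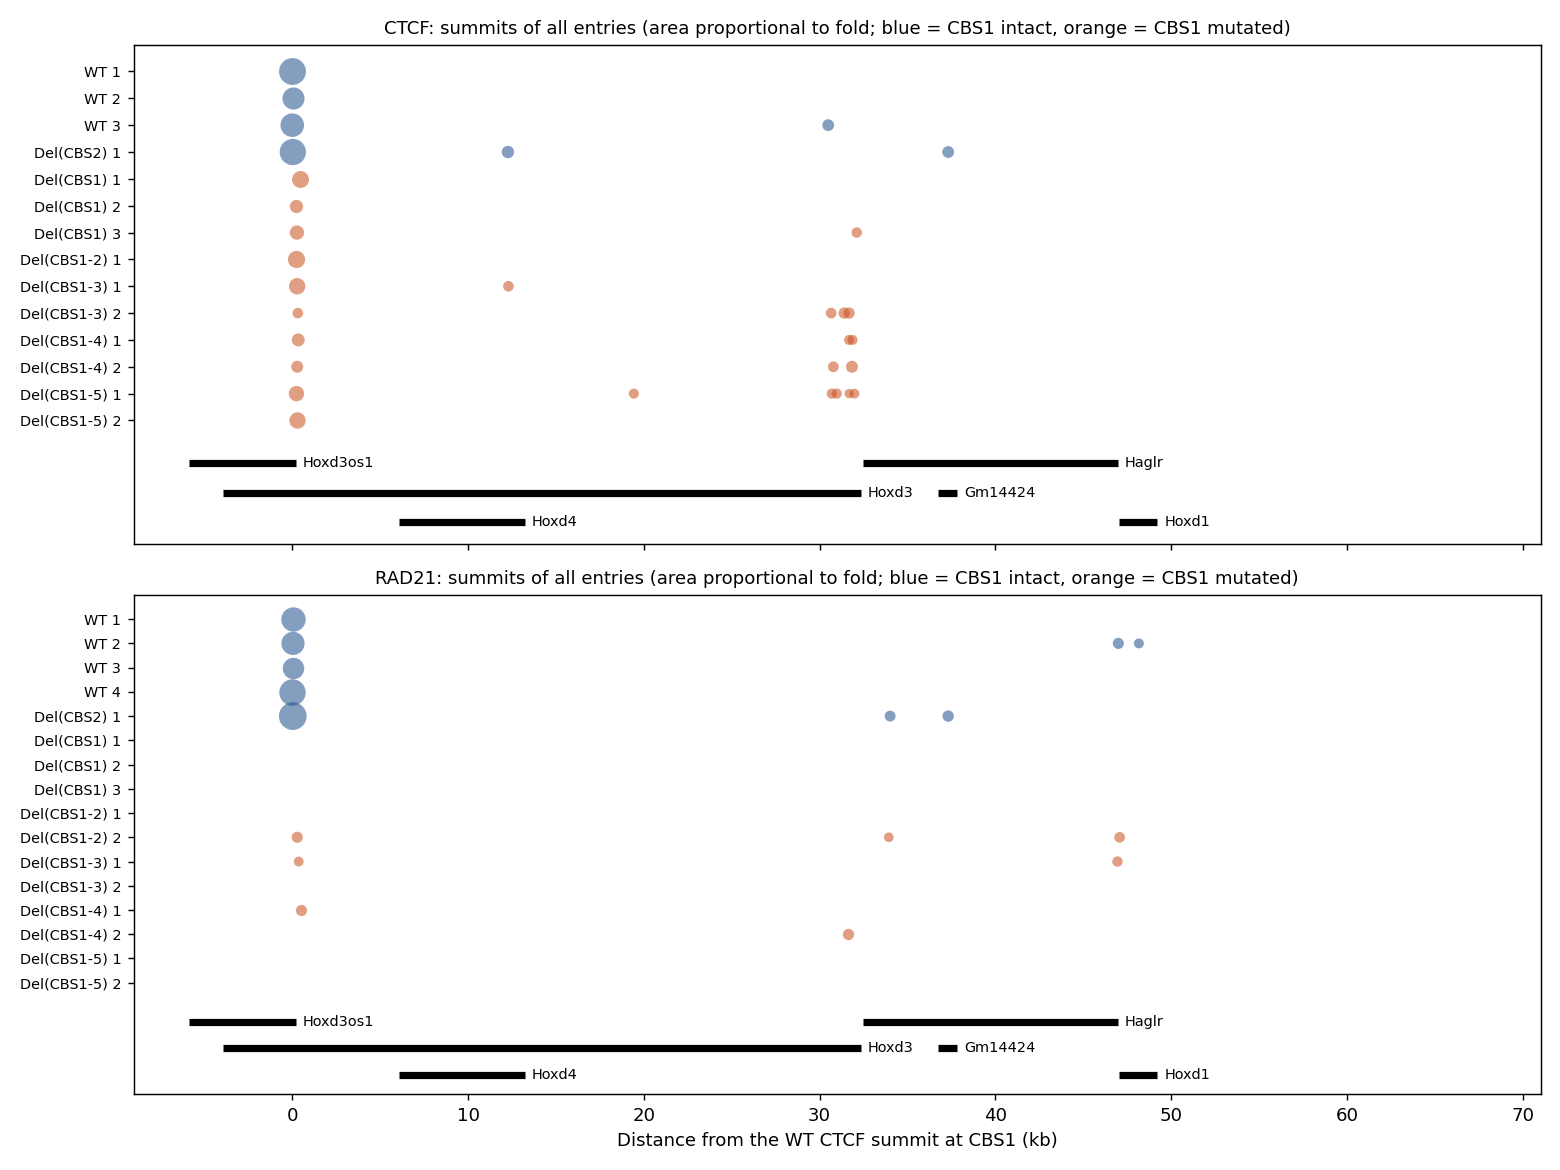
Summits of all 47 entries by library, in kb from the WT CTCF summit at CBS1, with point area proportional to fold and gene spans as black bars; blue is CBS1 intact and orange CBS1 mutated. The large points at 0 kb are the 4 CTCF and 5 RAD21 entries at intact CBS1, and beyond 1 kb every fold is at most 3.90.

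The sites most like CBS1 in their percentiles over libraries, outside HoxD, were named by Pearson's r as a description only. For CTCF over 14 libraries they were near Ctnnd1 (chromosome 2, 84550651; r = 0.945), in Larp1b (chromosome 3, 40960734; r = 0.939) and near Gm25202 (chromosome X, 14385831; r = 0.928). Their intact means were at most 4.53 percentile points, far below the 84.8 of CBS1. For RAD21 over 16 libraries they were near Slc24a2 (chromosome 4, 86957987; r = 0.875), near Gm35192 (chromosome 1, 90591016; r = 0.860) and in Dancr (chromosome 5, 74093200; r = 0.859). The Slc24a2 site had means of 54.1 with CBS1 intact and 27.6 with it mutated and was listed in all 16. These points share their libraries and list lengths with CBS1.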

How the data were processed

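CTCF and RAD21 ChIPmentation was analysed from 1 deposited peak list per library (14 CTCF, 16 RAD21), each called for that library alone on mm10. The submitters' processing notes name MACS2 2.1.1.20160309, bedtools 2.27.1, Picard 2.19.0, SAMtools 1.9, Bowtie2 2.3.5 and cutadapt 1.16; options are not given in the sources used here. Each deposited entry has a score for display, a fold enrichment as a ratio, a -log10 p, a -log10 q and a summit offset, all as the authors' peak caller wrote them. The deposited lists hold no read counts, so depth is unknown and no interval or detection floor was computed; list lengths were 40011 to 88323 for CTCF and 16676 to 48102 for RAD21. A list without a summit was read as not detected.

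Summits of all libraries of an antibody were linked within 100 bp, and sites in at least 2 libraries were kept. Folds were turned into percentiles among sites found in every library. Differences were fitted over all sites with limma 3.58.1 in R 4.3.3 (trend, robust, Benjamini-Hochberg, adjusted p of 0.05), with CBS1 status or 1 coefficient per genotype; a genotype with a lone library takes its spread from the rest. Single values were compared by exact permutation or Fisher's exact test, 2-sided, with scipy 1.17.1 (Python 3.11.15, pandas 2.3.3, numpy 2.4.6; figures with matplotlib 3.10.9). Tested on simulated data with 200 planted losses, the fits recovered 100% (CTCF) and 100% (RAD21) with CBS1 mutated against intact and 93.5% and 89.5% for Del(CBS1) against WT, with 27, 17, 6 and 22 other calls. The planted losses were total in every library of the mutated group and lay at sites with high percentiles. Recovery of partial losses or of changes at weak sites was not tested.

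The named positions were every linked site of the window in at least 2 libraries, every entry within 1 kb of CBS1, the genes holding an entry, and the 3 sites per antibody most like CBS1. One more gene list, outside HoxD, is not reported here. The window, members and lists were chosen with earlier results of these data known; the CBS1 position was then taken from WT lists alone. Genes came from RefSeq spans and promoter windows of GRCm38.p6, the mm10 assembly; no genome sequence was used here, so CBS1 itself is not printed. Alternatives were other link distances, ranks of -log10 p or of the whole list, a minimum -log10 q of 10, sites in at least 50% of the libraries, limma without trend and robust fit, the same number of top entries in every list, a replicate block, leaving out WT for CBS1 status, overlap in place of summits, and leaving out each library.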

Additional observations from a re-analysis of the deposited data

Results flagged for a closer look

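In 32 groups of 4 to 10 libraries, 3 values lay far from the rest of their group by Dixon's test, which flags about 1 in 20 groups by chance. The right edge of the CTCF entry at intact CBS1 was at 74716576 in Del(CBS2), beyond the 3 WT libraries. The Del(CBS2) list was also the longest CTCF list, at 88323 entries. RAD21 WT replicate 2 had 0.502 entries beside CBS1 per 10000 listed, and the other 3 WT libraries had 0; both of its entries were at Hoxd1. RAD21 at CBS1 stood at percentile 83.1 in WT replicate 3, below the other 4 libraries with CBS1 intact, which were at 93.7 to 97.7.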

How the results depend on the processing

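Of 443 recomputed values, 396 kept their direction and side of the threshold, or for counts of sites stayed within 1.5 times. This total does not measure robustness, because many of the values could hardly change. Among them are detection at CBS1 with 1 library left out and tests that did not pass in the main setting. The total also takes in comparisons given above without a test, such as edges and widths. Depth is unknown, so absence from a list limits every detection result. Without WT, detection at CBS1 had only the Del(CBS2) library on the intact side: -100 percentage points, exact p = 0.0909 for CTCF and 0.0833 for RAD21, the smallest possible. The limma fit without WT called 15430 CTCF sites lower and 925 higher and 5350 RAD21 sites lower and 254 higher, so with 1 intact library CBS1 was not the only site called. With the same number of top entries in every list, RAD21 flank detection fell to a difference of 0. Linking within 200 bp joined CBS1 and the CTCF flank, which gave a CTCF detection difference of 0 (exact p = 1), 0.164 entries beside CBS1 per 10000 (p = 0.296), a Del(CBS1) against WT difference of -67.97 points (adjusted p = 0.215) and 0 sites called in that contrast. Keeping sites in at least 50% of the libraries left CBS1 out by construction, with 0 called in both contrasts of both antibodies and no value at CBS1. For CBS1 mutated against intact in CTCF, 2 sites were called with a 50 bp link, 5 by -log10 p and 3 without trend and robust fit; Del(CBS1) against WT gave 2 by -log10 p.

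Leaving out each library gave 1 to 46 called CTCF sites for CBS1 status, 1 to 44 for Del(CBS1) against WT and 1 to 201 RAD21 sites for the latter. The CTCF entries beside CBS1 gave a difference of 0.291 to 0.398 per 10000 and the RAD21 ones -0.0742 to 0.0659, changing sign 9 times around a difference that did not pass. Counted as a number, the CTCF entries beside CBS1 differed by 1.65 (exact permutation p = 0.0979); with a -log10 q of at least 10 the difference was 0.159 per 10000 (p = 0.0849), and without the entries within 1 kb it was 0.164 (p = 0.296). The CTCF flank detection difference was 60 percentage points at that -log10 q, with no test, since the site entered only through mutated libraries. By overlap the difference was 0 for CTCF and -72.73 for RAD21. There every intact library counted through its CBS1 entry, so the overlap values do not measure the flank.

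Replicate numbers of WT and Del(CBS1) were checked for pairing. Deviations of same-numbered libraries correlated at 0.273, 0.145 and 0.0295 for CTCF and 0.277, 0.0875 and 0.0749 for RAD21, and WT replicate 2 correlated best with Del(CBS1) replicate 3 in both, so the numbers were not taken as pairs. With the replicate block, CTCF at CBS1 in Del(CBS1) against WT gave -85.32 points (adjusted p = 0.0537) and 0 sites called; the block changed no other call.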
